A study of Mus musculus with 10 samples.

Results

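The genes described here encode the serum amyloid A proteins (Saa1, Saa2, Saa3 and Saa4), the orosomucoids or alpha-1-acid glycoproteins (Orm1 and Orm2), haptoglobin (Hp), lipocalin 2 (Lcn2), serum amyloid P component (Apcs) and the inter-alpha-trypsin inhibitor heavy chain Itih4. They were taken by name as acute phase genes of the liver, and every probe that the platform annotation gives to 1 of them was used, which came to 15 probes for 10 genes of the 45281 probes on the array. Liver RNA of 10 FVB mice, an inbred strain, was measured on Illumina bead arrays, 1 array per mouse. Of these, 6 mice had received a plasmid for wild-type LKB1 through the tail vein, with 1 injection per week for 8 weeks, and 4 mice were untreated. LKB1, encoded by Stk11, is a kinase that activates AMPK. Neither the age of the mice nor the plasmid promoter is stated in the labels used, and no group received an empty plasmid, so injection, plasmid and LKB1 cannot be told apart.

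In the acute phase response, interleukin 6, interleukin 1 and related cytokines act on hepatocytes through STAT3, NF-kB and the C/EBP factors, and the liver then secretes more of a set of plasma proteins. In mice, Saa1, Saa2, Orm1, Orm2, Hp, Lcn2 and Apcs belong to the genes that rise, with Apcs a major acute phase protein of this species, while Saa4 is largely made at a constant rate. Saa3 is also made outside hepatocytes, in macrophages and adipose tissue, and Lcn2, which binds bacterial iron carriers, is also made by neutrophils.

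Values are log2 intensities after background correction and quantile normalization, and probes detected on at least 4 arrays (detection p under 0.05) were tested. All 15 probes met this filter, and 14 of them were detected on all 10 arrays. The exception was Saa2, which was detected in 1 untreated and 4 LKB1 mice, so its values lay near background. Between 15374 and 16839 probes were detected per array. With 10 arrays, their number limits how precisely any difference is known. The arrays were clustered on probes that were detected on no array, and the clustering was cut into 2 sets, by values and not by any label. Set A was made up of LKB1 mice 1, 2 and 4 with untreated mice 1 and 2, and set B of the remaining LKB1 and untreated mice. The cut gives 2 sets for any data, and the mean Spearman rho between arrays was 0.52 within sets and 0.48 between them. Differences within each set are given where they diverge. Stk11 itself had a log2 fold change of 0.06 ± 0.08 (SE) and an adjusted p of 0.93 (limma), so a higher level in LKB1 livers was not detected at its probe. Whether that probe also reads the plasmid transcript was not tested. The labels call the samples liver hepatocytes, and 12 of 12 listed hepatocyte markers passed the filter. Of 16 listed macrophage markers, however, 14 were on the array and 12 passed the filter. In such bulk RNA, more cells of a type and more RNA per cell cannot be told apart.

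The acute phase genes did not differ between LKB1 and untreated livers beyond the spread between mice. None of the 15 probes passed an adjusted p of 0.05 (limma, Benjamini-Hochberg over 16803 probes, of which 0% passed), and none had an unadjusted p under 0.05, against 6.66% of all probes. That unadjusted count was 4 of 15 within array set A, 2 of 15 without untreated replicate 3, and 0 or 1 under each of the other alternatives run. The 6.66% is for the main comparison, and the share of all probes under the alternatives is not given here, so these counts lack a background. The groups overlapped at each of the 15 probes, whereas they did not overlap at 1.37% of all probes. At the brightest probe of each, 7 of 10 genes had a higher mean in LKB1 livers, with a median log2 fold change of 0.07. Of all 9725 genes, 49.2% had a higher mean, with a median of 0.00. With the array medians made equal in place of quantile normalization, a scaling that moved the median of all probes to -0.14, the members' median was -0.09, and the probes with a higher mean went from 11 of 15 to 4 of 15. Under that scaling 9 of the 15 probes lay above the median of all probes, against 12 of 15 in the main comparison. Each count of higher genes under that scaling is to be read against this shift. The share of all genes that were higher under it is not given here. The 95% confidence intervals of the 15 probes ran from -0.46 at the lowest to 0.86 at the highest on the log2 scale, so that a 2-fold difference in either direction lay outside each interval, as for 98.7% of all probes.

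**Figure D1:**
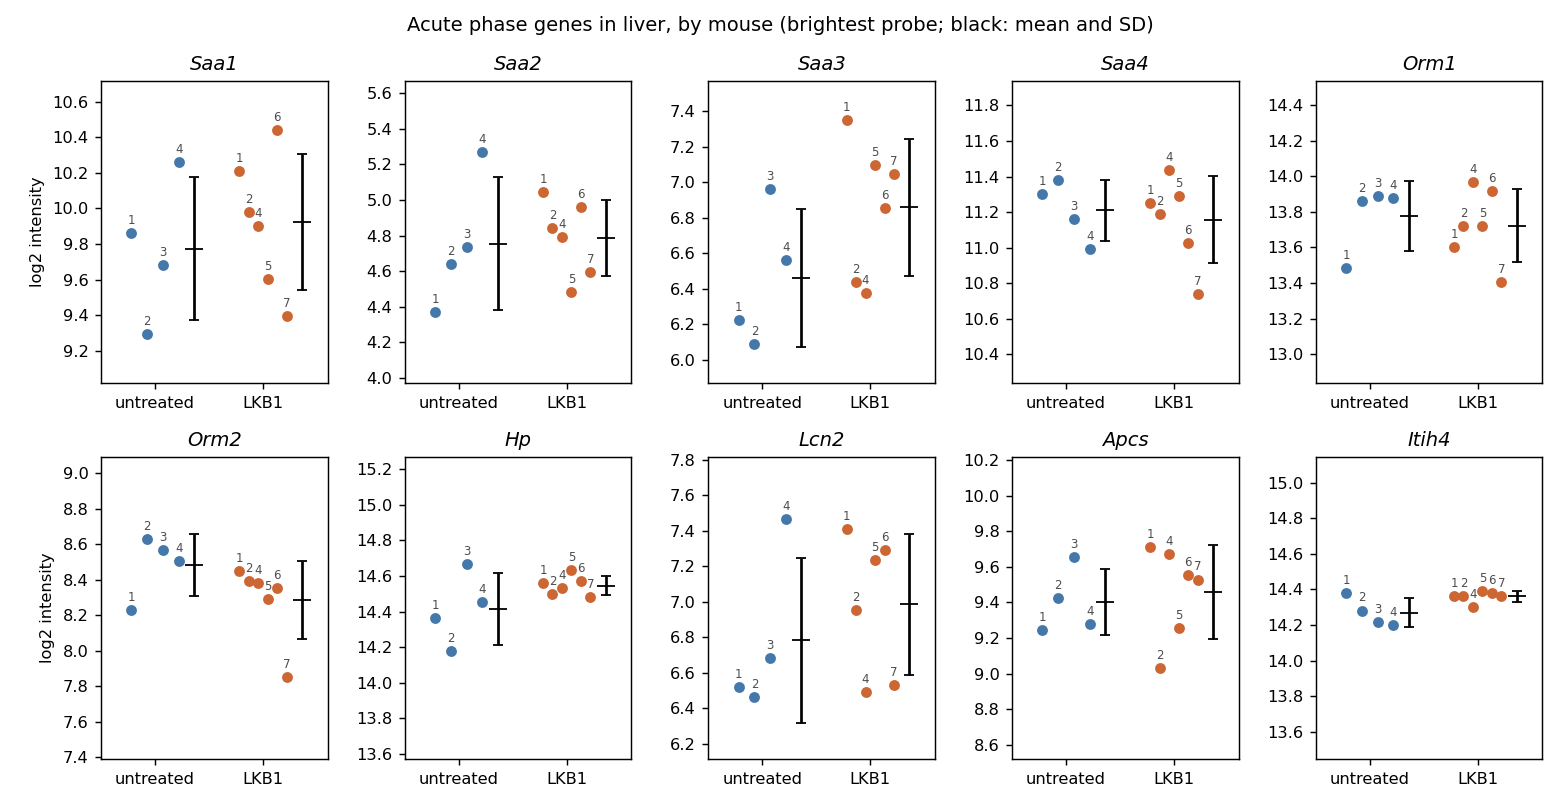
Log2 intensity (vertical axis, the same span in each panel) of the 10 acute phase genes at their brightest probe, with 1 point per mouse marked by its replicate number and the mean and SD of each group in black. The 4 untreated and 6 LKB1 mice overlapped for every gene shown, and Saa1, Saa3 and Lcn2 spread more widely than Hp and Itih4.

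Saa1 and Saa2 encode the inducible serum amyloid A proteins of plasma high-density lipoprotein. Their sequences upstream are shown because the genes varied together among mice, though no pair of members passed after adjustment. The RefSeq windows run from 250 bases before to 50 after an annotated start of transcription in the build GRCm38.p6. Capitals mark matches, on either strand, to GGGNNNNNCC for NF-kB or to TTNNGNAA for C/EBP, with N for any base. The Saa1 window lies at chr7:46742931-46743230 on the minus strand, and the Saa2 window at chr7:46751583-46751882 on the plus strand.
Saa1: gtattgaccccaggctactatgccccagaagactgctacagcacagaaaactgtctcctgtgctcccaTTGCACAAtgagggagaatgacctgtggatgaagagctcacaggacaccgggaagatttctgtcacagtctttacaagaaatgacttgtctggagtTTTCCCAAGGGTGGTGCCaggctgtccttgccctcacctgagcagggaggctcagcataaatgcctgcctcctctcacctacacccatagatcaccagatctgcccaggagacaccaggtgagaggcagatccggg
Saa2: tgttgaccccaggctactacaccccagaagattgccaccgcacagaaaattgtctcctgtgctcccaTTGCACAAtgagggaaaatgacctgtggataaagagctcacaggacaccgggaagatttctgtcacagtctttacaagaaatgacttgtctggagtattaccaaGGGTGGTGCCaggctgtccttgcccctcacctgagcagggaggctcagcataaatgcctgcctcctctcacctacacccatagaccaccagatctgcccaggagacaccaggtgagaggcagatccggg
Of 299 aligned bases, 287 were identical, and 95.3% of the alignment was identical with gaps counted. Both windows held an NF-kB match, GGGTGGTGCC, at positions -78 to -69 from the start in Saa1 and -79 to -70 in Saa2, and both held the C/EBP match TTGCACAA further upstream. Saa1 held a further C/EBP match, TTTCCCAA, next to the NF-kB match. Such matches are common, as 50.8% of all 32851 promoter windows of this length held GGGNNNNNCC and 40.7% held TTNNGNAA. A match describes the letters of a window and was not tested as a binding site. Whether such matches bear on how any of these genes varied among mice was not tested.

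Saa1 had log2 intensities of 9.86, 9.29, 9.68 and 10.26 in untreated mice 1 to 4. In the 6 LKB1 mice it ran from 9.40 (mouse 7) to 10.44 (mouse 6), with a median of 9.94. The lowest value was thus that of an untreated mouse and the highest that of an LKB1 mouse, and the rest were mixed. The mean was 9.77 ± 0.40 (SD, n = 4) in untreated and 9.92 ± 0.38 (SD, n = 6) in LKB1 livers, a fold change of 1.11 with a 95% interval from 0.805 to 1.52 (adjusted p = 0.934, limma). The second Saa1 probe, 5.47 ± 0.24 against 5.71 ± 0.41 (SD), gave a log2 fold change of 0.24 ± 0.20 (SE). The brighter probe gave a difference of 0.45 among mice of set A, of -0.16 among those of set B, and of -0.01 without untreated replicate 2 and 0.31 without untreated replicate 4.

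Saa2 was measured at 4.37, 4.64, 4.74 and 5.27 in untreated mice. In the LKB1 mice it ran from 4.48 (mouse 5) to 5.04 (mouse 1), with a median of 4.82. Both extremes were untreated mice, and the group means of 4.75 ± 0.38 and 4.79 ± 0.21 (SD) differed by 0.03 ± 0.16 (SE). Within array set A the difference was 0.39 and within set B it was -0.32. Saa1 and Saa2 are near-identical paralogs, and whether a probe of 1 also binds the transcript of the other was not tested.

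Saa3 had the largest positive difference among the members. Its values were 6.23, 6.09, 6.96 and 6.56 in untreated mice. LKB1 mice ran from 6.38 (mouse 4) to 7.35 (mouse 1), with a median of 6.95. LKB1 mice 1, 5 and 7 lay above every untreated mouse, but LKB1 mice 2 and 4 lay below untreated mice 3 and 4. The fold change was 1.32, with a 95% interval from 0.961 to 1.81, an unadjusted p of 0.0812 and an adjusted p of 0.788 (limma). The log2 difference was above 0 in both sets, 0.56 in set A and 0.24 in set B, and ranged from 0.28 without untreated replicate 2 to 0.56 without untreated replicate 3. Saa3 was 0.41 higher on arrays of set B than on those of set A (adjusted p = 0.233, limma), and with the array set as a block the unadjusted p was 0.0493 and the adjusted p 0.575 (limma).

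Markers of Kupffer cells and other macrophages, which can express Saa3, had a higher mean after LKB1 for 12 of the 12 that were measured, against 49.2% of all genes. None of them passed the test at an adjusted p of 0.05 (limma), as 0% of all 9725 genes did. The unadjusted p was under 0.05 for 2 of 12, against 6.3% of all genes. The median difference of the list was 0.22 (log2), and once array medians were made equal it was 0.057, with 9 of 12 higher. The median of all probes was -0.003 in the main comparison and -0.14 with array medians made equal. The summed intensity of the list ranged from 2945 to 5316 in untreated and from 4358 to 5550 in LKB1 livers. C1qa, C1qb and C1qc, the chains of complement C1q, had the smallest p, with log2 fold changes of 0.37 ± 0.14, 0.43 ± 0.17 and 0.34 ± 0.17 (SE). Without untreated replicate 4 these were 0.20, 0.28 and 0.21, and with array medians made equal 0.21, 0.22 and 0.15. Their part in the value of Saa3 was not tested. Of 16 neutrophil markers, 15 were on the array and 4 passed the filter (Elane, Mmp9, S100a8 and Prtn3, the last named after its values were seen). The summed intensity of these 4 was 98.1 to 120.0 in untreated and 107.0 to 123.1 in LKB1 livers. Only Mmp9 was detected in every mouse. S100a8 was detected in 2 untreated and 2 LKB1 mice, Prtn3 in 2 and 3, and Elane in 2 and 5. The sum thus lay near background and cannot show how neutrophil content compared.

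Saa4, the constitutive family member, was measured at 11.30, 11.38, 11.16 and 10.99 in untreated mice. The LKB1 mice ran from 10.74 (mouse 7) to 11.44 (mouse 4), with a median of 11.22. LKB1 mice held both the highest and the lowest value. The means of 11.21 ± 0.17 and 11.16 ± 0.24 (SD) differed by -0.05 ± 0.13 (SE), with an adjusted p of 0.963 (limma). Set B minus set A was -0.27 ± 0.10 (SE) with group in the model, with an adjusted p of 0.183 (limma).

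Lcn2, the siderophore-binding lipocalin, had values of 6.52, 6.47, 6.68 and 7.47 in untreated mice. In LKB1 mice it ran from 6.49 (mouse 4) to 7.41 (mouse 1), with a median of 7.09. Both groups held mice at the low and at the high end, from 6.47 to 7.47 over all mice. The fold change between groups was 1.15, with a 95% interval from 0.815 to 1.62 (adjusted p = 0.910, limma). Untreated mouse 4 was the highest of all mice, and the log2 fold change of 0.20 became 0.43 without it and 0.095 without untreated replicate 2. Within sets, the difference was 0.46 for the arrays of A and -0.05 for those of B.

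The window upstream of Lcn2, at chr2:32387690-32387989 on the minus strand, is printed because Lcn2 varied among mice much as Saa1 and Saa2 did, with capitals as above.
Lcn2: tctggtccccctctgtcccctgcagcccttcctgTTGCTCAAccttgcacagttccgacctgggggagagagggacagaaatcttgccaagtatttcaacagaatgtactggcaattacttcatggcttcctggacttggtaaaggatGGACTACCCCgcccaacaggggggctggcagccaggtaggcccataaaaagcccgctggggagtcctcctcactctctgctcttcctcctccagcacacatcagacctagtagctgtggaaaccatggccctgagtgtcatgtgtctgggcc
It held an NF-kB match on the reverse strand, GGACTACCCC, at positions -102 to -93, and a C/EBP match, TTGCTCAA. The window of Saa3, at chr7:46715627-46715926 on the minus strand, is set beside it since Saa3 ranked the mice in another order than Saa1. With Lcn2, however, Saa3 had r = 0.53 over the 10 mice, and a link between window and variation was not tested.
Saa3: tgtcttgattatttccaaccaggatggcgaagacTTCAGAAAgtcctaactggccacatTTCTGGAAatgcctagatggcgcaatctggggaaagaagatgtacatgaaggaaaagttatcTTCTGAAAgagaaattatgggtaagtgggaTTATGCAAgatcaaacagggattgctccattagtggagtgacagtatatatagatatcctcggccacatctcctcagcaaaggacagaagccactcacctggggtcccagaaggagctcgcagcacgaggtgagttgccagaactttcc
It held 4 C/EBP matches and no match to GGGNNNNNCC, and 54.2% of its alignment with Saa1 was identical, a share near that of unrelated member windows such as Saa1 and Orm2 at 52.8%. Windows of 8 of the 10 genes were in the table used. Among these, 5 of 8 held an NF-kB and 6 of 8 a C/EBP match, while TTCNNNGAA for STAT factors occurred in Apcs and Itih4, against 8.3% of all windows, and CTGGGAA, a type 2 interleukin 6 response element, occurred in Apcs, against 11.1%.

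Orosomucoids are lipocalins of plasma that bind drugs and other small molecules. Orm1 was measured at 13.48, 13.86, 13.89 and 13.88 in untreated mice. The LKB1 values ran from 13.41 (mouse 7) to 13.97 (mouse 4), with a median of 13.72. LKB1 mouse 7 and untreated mouse 1 were the lowest, and LKB1 mice lay on both sides of the untreated mice. The group means of 13.78 ± 0.20 and 13.72 ± 0.21 (SD) gave a fold change of 0.962, with an interval from 0.800 to 1.16 (adjusted p = 0.958, limma).

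Orm2 had the lowest difference of the members. It was at 8.23, 8.63, 8.57 and 8.50 in untreated mice. In LKB1 mice Orm2 ran from 7.85 (mouse 7) to 8.45 (mouse 1), with a median of 8.37. Untreated mice 2, 3 and 4 lay above all LKB1 mice, and untreated mouse 1 lay below all of them except mouse 7. The fold change was 0.873, with a 95% interval from 0.725 to 1.05 and an adjusted p of 0.828 (limma). On the log2 scale the difference came to -0.02 within set A, -0.37 within set B, -0.28 without untreated replicate 1 and -0.11 without LKB1 replicate 7. Whether the Orm probes also bind the transcript of Orm3, a neighbouring paralog, was not tested.

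Haptoglobin, which captures free haemoglobin, was measured by 3 probes. The brightest gave 14.37, 14.18, 14.66 and 14.45 in untreated mice. The same probe ran from 14.48 (mouse 7) to 14.63 (mouse 5), with a median of 14.55, in LKB1 mice. The LKB1 mice lay within 1.11-fold of each other, inside the 1.40-fold span of the untreated mice. The fold change was 1.10, with an interval from 0.953 to 1.26 (adjusted p = 0.853, limma). The other probes gave log2 fold changes of 0.06 ± 0.09 and -0.00 ± 0.08 (SE), and the 3 probes ranked the mice alike, with Pearson r from 0.618 to 0.772 over 10 mice. Its deposited intensity was between 19037 and 31828, on arrays whose brightest probe lay between 38524 and 49480.

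Apcs, a mouse pentraxin, was at 9.25, 9.42, 9.65 and 9.28 in untreated mice. In LKB1 mice Apcs ran from 9.03 (mouse 2) to 9.71 (mouse 1), with a median of 9.54. LKB1 mice held the extremes, mouse 2 at the bottom and mouse 1 at the top. The fold change was 1.04, with an interval from 0.845 to 1.28 (adjusted p = 0.962, limma).

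Itih4, a plasma protein cleaved by kallikrein, had 3 probes that did not follow each other. The brightest was at 14.38, 14.28, 14.22 and 14.20 in untreated mice. In LKB1 mice this probe ran from 14.30 (mouse 4) to 14.39 (mouse 5), with a median of 14.37. Untreated mouse 1 lay among the highest LKB1 mice and untreated mice 2, 3 and 4 lay below all LKB1 mice, within a span of 1.14-fold over all 10. Its log2 fold change was 0.09 ± 0.07 (SE), and the other probes gave 0.13 ± 0.12 and 0.02 ± 0.12 (SE). The dimmer probes, the second and the third, ran opposite to each other over the mice, at r = -0.780. The second lay between 13.46 and 13.83 on arrays of set A and between 13.84 and 14.08 on those of set B, without overlap, and the third was lower in set B by 0.26 (log2 difference -0.26 ± 0.09, SE). Neither set difference passed the test (adjusted p = 0.104 and 0.147, limma), which 133 of the 16803 probes did.

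**Figure D2:**
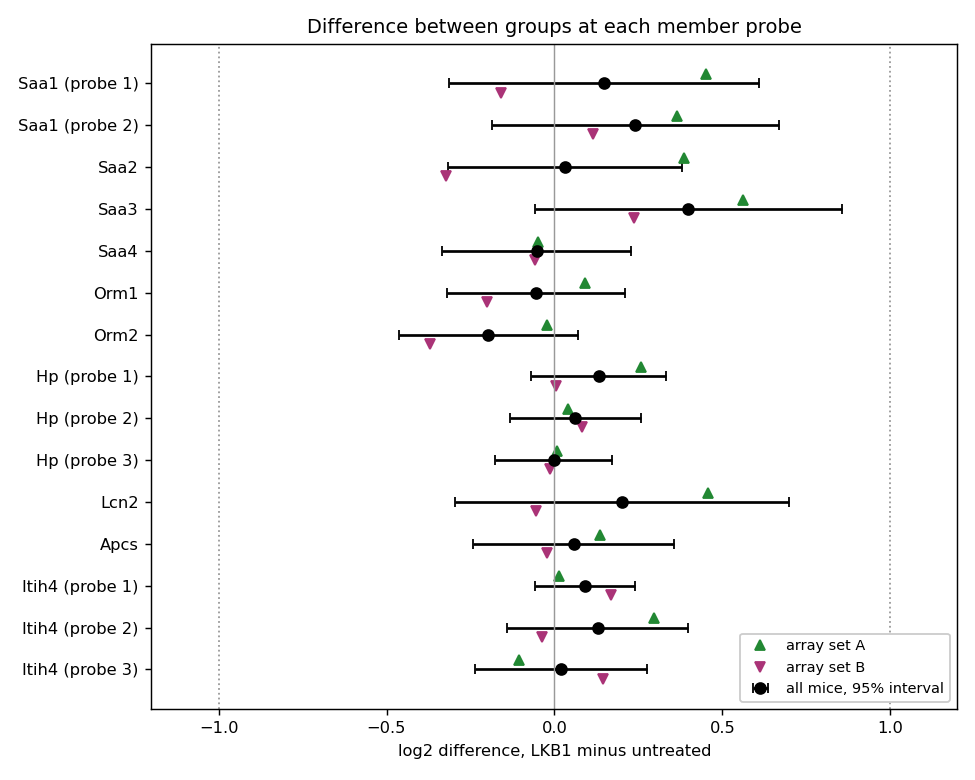
Log2 difference between LKB1 and untreated livers (horizontal axis) at the 15 acute phase probes, with 95% confidence intervals over all mice and the differences within array sets A and B as triangles. Each interval includes 0 and stays inside the dotted lines that mark a 2-fold difference, and the sets lie on opposite sides of 0 for Saa1 (probe 1), Saa2 and Lcn2, among others.

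The members varied among mice to different degrees. Over all 10 mice, the SD of Saa3 was 0.42, that of Lcn2 0.41 and that of Saa1 0.38, each above the SD of at least 95.1% of the tested probes. At their brightest probes, the SD of Hp was 0.14 and that of Itih4 0.07, above only 30.9% and 2.13% of them. The other Hp probes had SDs of 0.12 and 0.09, above 19.6% and 7.10%. For Itih4 the low spread held at the brightest probe only, as its other probes had SDs of 0.21 and 0.18, above 64.9% and 53.6%. After quantile normalization that brightest probe had the same value, 14.3656, in LKB1 mice 1, 2 and 7. Its deposited intensities ran from 16848 to 24742 over all mice. How far the normalization narrowed its spread was not tested.

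Saa1, Saa2 and Lcn2 were high in the same mice. Untreated mouse 4 and LKB1 mice 1 and 6 were the 3 highest for each of these genes. Over the 10 mice, Saa1 correlated with Saa2 at Pearson r = 0.71 (permutation p = 0.0223) and Spearman rho = 0.79 (permutation p = 0.00928). Saa1 correlated with Lcn2 at r = 0.71 (permutation p = 0.0262) and rho = 0.71 (permutation p = 0.0267), and Saa2 with Lcn2 at r = 0.67 (permutation p = 0.0351) and rho = 0.66 (permutation p = 0.0431). Among all 45 pairs of members, 0 passed after Benjamini-Hochberg adjustment of the permutation p of r, with adjusted values of 0.295, 0.295 and 0.316 for these pairs, and 5 had an unadjusted p under 0.05. Without the 2 mice farthest from the median of the first gene, r was 0.77 for Saa1 with Saa2, 0.61 for Saa1 with Lcn2 and 0.47 for Saa2 with Lcn2. With group and array set both removed, r was 0.72, 0.73 and 0.68. In the authors' processed values r was 0.61, 0.71 and 0.60. Saa2 lay near background, detected in 1 untreated and 4 LKB1 mice, and whether its probe also binds the Saa1 transcript was not tested.

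The other pairs of smallest p were Saa3 with Hp and Orm1 with Orm2. Saa3 and Hp had r = 0.74 (permutation p = 0.00849, adjusted p = 0.215) and rho = 0.68 (permutation p = 0.0353), and r = 0.71 without the 2 mice farthest from the median of Saa3. With the group removed r was 0.67, and with group and array set both removed it was 0.49. Orm1 and Orm2 had r = 0.74 (permutation p = 0.00956, adjusted p = 0.215) and rho = 0.46 (permutation p = 0.181). Their r fell to 0.21 without LKB1 mouse 7 and untreated mouse 1, so it rested on those mice. Saa3 followed Saa1 and Saa2 weakly, with r = 0.18 for Saa1 and r = 0.20 for Saa2. With Lcn2 it had r = 0.53 (permutation p = 0.114) and rho = 0.64 (permutation p = 0.0539). That r was 0.25 without the 2 mice farthest from the median of Saa3. The correlations depended on the scaling over all pairs. With array medians made equal, the pairs with r above 0 went from 31 of 45 to 43 of 45 and the median r from 0.18 to 0.56, and Orm2 with Itih4 turned from r = -0.58 to r = 0.68.

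**Figure D3:**
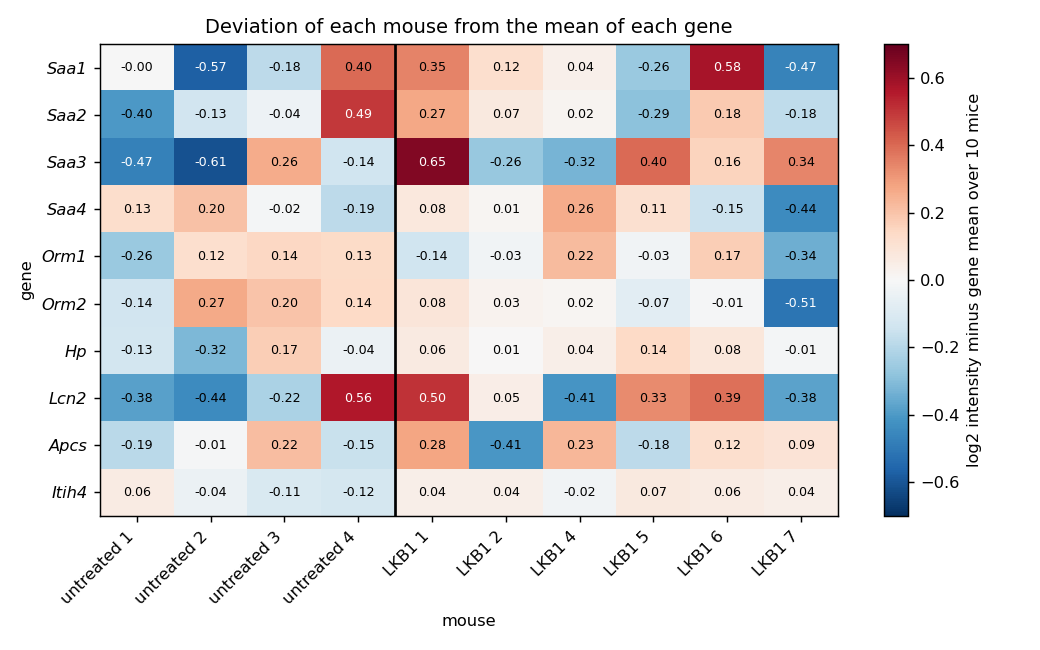
Log2 intensity of each mouse minus the mean of that gene over all 10 mice, for the 10 acute phase genes (rows) and the mice (columns), with red above and blue below the mean. Saa1, Saa2 and Lcn2 are above their mean together in untreated mouse 4 and LKB1 mice 1 and 6, and LKB1 mouse 7 is lowest for Saa4, Orm1 and Orm2.

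Genes outside the family that ran most like a member were sought among 9466 genes, for the 9 members detected on every array, by Pearson r over the 10 mice. These are the highest of many values and are given as a description. For Saa1 they were Rell1 (r = 0.91), Sepsecs (r = 0.87) and Nudt9 (r = 0.85). For Saa3 they were Fam168b (r = 0.95), the class I histocompatibility gene H2-Q7 (r = 0.94) and Wdr45b (r = 0.92). For Lcn2 they were Rpl7a (r = 0.93), Pcgf3 (r = 0.90) and Nlrp12 (r = 0.86). For Orm2 they were Ifrd2 (r = 0.94), Stard7 (r = 0.94) and Spry4 (r = 0.90), and for Hp they were Ppm1g (r = 0.95), Zfp703 (r = 0.93) and Ei24 (r = 0.92). For Saa4 they were Tusc1 (r = 0.95), Ptcd3 (r = 0.94) and Ssbp1 (r = 0.94), and for Orm1 they were Ufc1 (r = 0.93), Tbca (r = 0.91) and Mpi (r = 0.90). For Apcs they were Dysf (r = 0.90), C1qtnf1 (r = 0.90) and Evc2 (r = 0.86), and for Itih4 they were Nolc1 (r = 0.92), Snora65 (r = 0.90) and Shtn1 (r = 0.89).

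The other acute phase proteins of the liver showed no called gene either. Of 23 measured genes whose products rise in inflammation, 0 passed in either direction (limma), and 2 had an unadjusted p under 0.05, against 6.3% of all genes. Among the 23, 16 were higher and 7 lower, with a median difference of 0.06 (log2). Once array medians were made equal, 3 of 23 were higher. Under that scaling the list median was -0.14, and that of all probes was -0.14 too. The neutrophil chemokine Cxcl1 had the smallest p in this list, at -1.86 ± 0.28 (SE) with an adjusted p of 0.166 (limma). No tested probe had a smaller adjusted p, and the list was chosen with earlier results of these data known. Its rank in the list is thus no separate result. The LKB1 values of Cxcl1 lay below all untreated values, and the groups did not overlap at 1.37% of all probes. With array medians made equal Cxcl1 passed, at -2.07 and an adjusted p of 5.9e-05 (limma), as 15 of the 16803 probes did. The interleukin 1 receptor antagonist Il1rn was at -0.21 ± 0.10 (SE) and the lipopolysaccharide-binding protein Lbp at 0.20 ± 0.11 (SE). Of 15 measured genes whose products fall in inflammation, 0 passed (limma) and 1 had an unadjusted p under 0.05, with 5 higher and 10 lower and a median of -0.04. Thrsp, a lipogenic gene, was at -0.74 ± 0.31 (SE), or -0.40 without untreated replicate 2, and the corticosteroid-binding globulin Serpina6 at -0.18 ± 0.14 (SE).

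The cytokines that drive these genes were mostly below detection. Il6, Tnf, Osm, Lif, Il11 and Il22 did not pass the filter, and neither did the shared receptor chain Il6st. The interleukin 1 genes Il1b and Il1a did, at log2 fold changes of 0.34 ± 0.26 and 0.05 ± 0.14 (SE). Il1b was detected in all mice, and Il1a in 3 untreated and 5 LKB1 mice. Of the 13 ligands and receptors that passed the filter, 0 passed the test (limma), with 9 higher and 4 lower, or 6 higher with array medians made equal. Under that scaling the list median was -0.03, beside -0.14 for all probes. An unadjusted p under 0.05 occurred in 3 of 13, against 6.3% of all genes. The leukaemia inhibitory factor receptor Lifr was at 0.65 ± 0.28 (SE), with LKB1 values that spread at 0.66 (SD, n = 6) against 0.06 (SD, n = 4). The tumour necrosis factor receptor Tnfrsf1b was at 0.20 ± 0.08 (SE) and the lipopolysaccharide receptor Tlr4 at 0.22 ± 0.10 (SE). The interleukin 6 receptor Il6ra was at -0.25 ± 0.23 (SE), and its remaining probes gave -0.36 and 0.02.

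Of 20 measured signal transducers and transcription factors, 0 passed (limma) and 3 had an unadjusted p under 0.05, with 12 higher and 8 lower, or 4 higher with array medians made equal. Under that scaling the list median was -0.15, beside -0.14 for all probes. Socs3, a feedback inhibitor induced by STAT3, was at 7.27, 5.92, 8.62 and 8.04 in untreated mice. In LKB1 mice Socs3 ran from 5.82 (mouse 2) to 6.88 (mouse 1), with a median of 6.10. Untreated mice 1, 3 and 4 lay above all LKB1 mice, and untreated mouse 2 lay among the lower ones. Its log2 fold change was -1.18 ± 0.42 (SE), with an unadjusted p of 0.0160 and an adjusted p of 0.645 (limma), at -0.37 in array set A and -1.98 in set B. Unadjusted p under 0.05 occurred in 6.3% of all genes. The Socs3 difference was -0.79 without untreated replicate 3 and -1.69 without untreated replicate 2. The NF-kB inhibitor Nfkbia was at -0.29 ± 0.11 (SE) and its relative Bcl3 at 0.34 ± 0.14 (SE). Stat3 was at 0.05 ± 0.21 (SE) on its brightest probe, with 0.13 and -0.34 on the others, and Cebpb and Cebpd at -0.04 ± 0.12 and 0.02 ± 0.11 (SE).

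Receptors and partners of the acute phase proteins showed 0 called genes of 13 measured (limma), with 0 at an unadjusted p under 0.05 and 8 higher and 5 lower, or 4 higher with array medians made equal. Under that scaling the list median was -0.08, beside -0.14 for all probes. Fpr2, a formyl peptide receptor that also binds serum amyloid A, was at 0.28 ± 0.17 (SE). Cd163, the macrophage receptor for haptoglobin bound to haemoglobin, was at 0.13 ± 0.09 (SE) and was detected in 1 untreated mouse and in 5 LKB1 mice. Scarb1, a receptor for high-density lipoprotein, was at 0.17 ± 0.12 (SE), and a second probe gave 0.02.

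Among the cell type lists, 8 of 12 hepatocyte markers were higher, or 0 of 12 with array medians made equal, and 0 passed (limma). Under that scaling the median of the 12 was -0.16, beside -0.14 for all probes. Of these 12, 2 had an unadjusted p under 0.05, against 6.3% of all genes. Cyp3a11, a drug-metabolizing cytochrome of hepatocytes, was at -0.66 ± 0.13 (SE) with an adjusted p of 0.301, or 0.0423 with array medians made equal (limma). Of 8 measured adipocyte and stellate cell markers 6 were higher, or 1 with array medians made equal, and of 3 lymphocyte markers 1 was higher under either scaling. The list medians with array medians made equal were -0.12 and -0.11. None of these adipocyte, stellate cell and lymphocyte markers had an unadjusted p under 0.05 (limma).

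**Figure D4:**
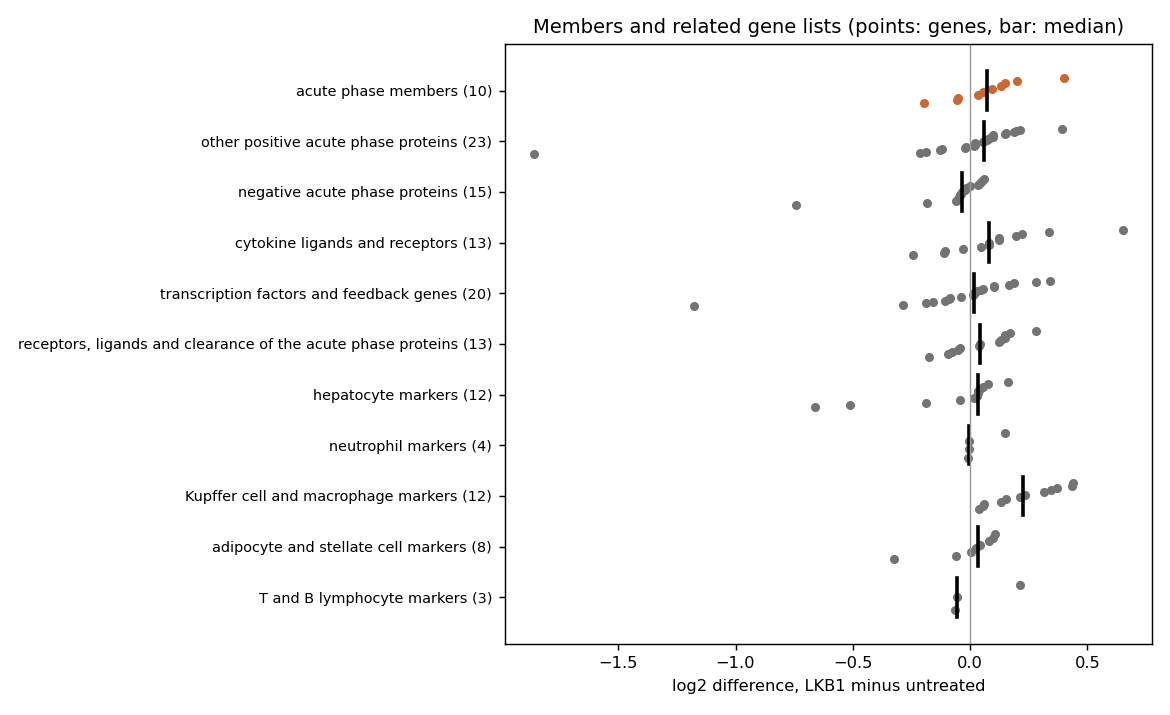
Log2 difference between LKB1 and untreated livers (horizontal axis) of the 10 acute phase genes in orange and of the measured genes of related lists in grey, each at its brightest probe, with the median of each list as a black bar. The number of genes stands beside each name. The acute phase genes lie between -0.20 and 0.40, and 12 of 12 macrophage markers lie above 0, or 9 of 12 with array medians made equal. With array medians made equal, the median of all probes was -0.14.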

How the data were processed

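Liver RNA of 4 untreated and 6 LKB1 mice was measured on Illumina bead arrays. The deposited table gives, per the file headers, a signal intensity and a detection p-value per probe and array, and the tool lumi is listed per the submitters' processing notes (version not stated). The authors' processed log2 values, deposited as a second table, served as an alternative. Genes were named through the platform annotation, which gave 1 symbol to 34885 probes, several to 18 and none to 10378. Each column was mapped to 1 sample by its label, and the design text counts mice. Apart from this, nothing states that the arrays are of separate animals.

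Intensities were corrected and quantile normalized with neqc (offset 16, limma 3.58.1, R 4.3.3), and a probe was kept if its detection p was under 0.05 on 4 or more arrays. Groups were compared with limma, two-sided, with Benjamini-Hochberg adjustment over 16803 probes. The code was tested on simulated data. Correlations used 100000 permutations. A gene was represented by its brightest kept probe. Named genes are all member probes, the 3 genes of smallest p per list, Stk11, the main regulators whatever their value, and the 3 most alike genes per member. The members and lists were chosen with earlier results of these data known. Replicate numbers 1, 2 and 4 occur in both groups, and the correlations of their deviations were 0.146, 0.239 and -0.166, so the numbers were not taken as pairs. Alternatives covered the filter, scaling, background correction, array weights, array sets, blocks and leaving out each mouse. Promoter windows are from RefSeq, build GRCm38.p6.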

Additional observations from a re-analysis of the deposited data

Results flagged for a closer look

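A single mouse stood apart from its group at 3 of the 30 groups examined (2 groups at each of 15 probes), by the gap to its nearest neighbour as a share of the group's range. Chance alone flags about 5% of such groups. Orm1 was lowest in untreated mouse 1, at 13.48, with the other untreated mice at 13.86 or above. Orm2 was lowest in LKB1 mouse 7, at 7.85, with the next LKB1 mouse at 8.29. The brightest Itih4 probe was lowest in LKB1 mouse 4, at 14.30, in a group whose SD was 0.03.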

How the results depend on the processing

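No member probe was called under any alternative run (limma), and the smallest adjusted p of a member was 0.518, without untreated replicate 3. With array medians made equal, 15 probes of all genes were called in place of 0, and 2 genes of the related lists, Cyp3a11 (adjusted p = 0.0423) and Cxcl1. The members' median was then -0.093, and log2 fold changes turned to -0.064 for Saa1 probe 1, -0.024 and -0.17 for Hp probes 1 and 2, -0.14 for Apcs, and -0.12, -0.060 and -0.21 for Itih4 probes 1, 2 and 3. Under that scaling the median of all probes was -0.14, against -0.003 in the main comparison, and 9 of 15 member probes lay above it. Why the scalings differ was not tested. With the replicate block, 0 member probes were called, and the sign turned for Saa4 (0.069), Orm1 (0.023), Hp probe 3 (0.017) and Itih4 probe 3 (-0.0043). With array weights it turned for Hp probe 3 (0.018) and Itih4 probe 3 (-0.013). Within array set A it turned for Orm1 (0.091), Hp probe 3 (0.0077) and Itih4 probe 3 (-0.10), and within set B for Saa1 probe 1 (-0.16), Saa2 (-0.32), Lcn2 (-0.054), Apcs (-0.021) and Itih4 probe 2 (-0.038), with fewer mice in each. Leaving out each mouse gave -0.013 to 0.31 for Saa1 probe 1, -0.096 to 0.20 for Saa2, -0.13 to 0.031 for Saa4, -0.15 to 0.0087 for Orm1, 0.095 to 0.43 for Lcn2, -0.032 to 0.044 for Hp probe 3 and -0.086 to 0.096 for Itih4 probe 3. The members' median then ran from 0.029 to 0.11, and 0 to 1 probes of all genes were called, the 1 without LKB1 replicate 2. Residuals from group and array set were added for the pairs after seeing the data, and none of the 5 pairs of smallest p changed sign, though Saa3 with Hp went from 0.74 to 0.49. The upper bound of a member interval exceeded a 2-fold difference within array set A, where it reached 1.23. Saa2 lay near background.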
